A study of Mus musculus with 2 samples.

Results

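Known single-exon transcripts are annotated transcripts that consist of 1 unspliced block. Here they were the models of the GENCODE M21 mouse annotation that the authors' transcript calling marked as known and gave 1 exon, with synthetic spike-ins and the mitochondrial chromosome left out. Reads fell on 1411 of them, among 18855 known transcripts with reads. Replicate 2 held reads of 1182 of these transcripts and replicate 1 held reads of 969, and 740 had reads in each library, beside 12582 of all 18855. The annotation lists 26771 such transcripts outside the mitochondrial chromosome, of which 5.27% had reads, against 15.1% of 115054 annotated multi-exon transcripts.

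The reads are long-read RNA sequences of whole heart tissue from male B6CASTF1/J mice, the first-generation offspring of C57BL/6J crossed with CAST/EiJ, at 18 to 20 months of age. The 2 libraries form 1 group. They are called biological replicates 1 and 2 but carry the same donor identifier, and each started from 2 µg of RNA. With no second condition, every comparison below sets replicate 2 against replicate 1. The p-values treat reads as independent and cover counting error only, so the spread they measure may be technical. The depth was 1019974 reads in replicate 2, of which 1003999 were from mouse, and 699529 in replicate 1, of which 688861 were. Levels are given in CPM, the mouse reads of the library scaled to a sum of 1000000, and a count of 0 allows up to 2.99 CPM for replicate 2 and 4.36 CPM for replicate 1. All 8 heart markers examined had reads, from Myh6 at 15406 CPM in replicate 2, against 16996 CPM in replicate 1, down to Ryr2 at 90.6 and 103 CPM. The skeletal muscle, liver and lung markers had no reads in either library.

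Most annotated genes of the mouse have introns, and several unlike kinds of locus do not. Processed pseudogenes are copies of messenger RNAs that were reverse transcribed and inserted back into the genome, so they resemble the spliced mRNA of a source gene. Other unspliced loci are copies of mitochondrial DNA in the nuclear genome. Some protein-coding genes are intronless, among them those of the Jun proteins, the inducible Hsp70 chaperones and most histones. Nuclear long non-coding RNAs such as Malat1 and Neat1 also have unspliced forms, and the annotation holds unspliced fragments of spliced genes that keep an intron.

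How closely such copies match a coding mRNA is shown by 5 examples: the 2 pseudogenes with the highest mean level, 2 copies of ribosomal protein genes that differ from the source at few bases, and a copy of a mitochondrial gene. They are printed 5′ to 3′ from the GENCODE M21 transcript sequences (mm10). Gm12338-201 lies on chr11:75599763-75599954 and Gm14539-201 on chrX:20581141-20581314, both on the minus strand. Each is identical over its whole length to part of the spliced mRNA of a source gene: Cox7c, a subunit of cytochrome c oxidase, for Gm12338 and Usmg5, a small subunit of ATP synthase, for Gm14539. They hold no capital letter, because capitals mark bases that differ from the source mRNA.
Gm12338-201: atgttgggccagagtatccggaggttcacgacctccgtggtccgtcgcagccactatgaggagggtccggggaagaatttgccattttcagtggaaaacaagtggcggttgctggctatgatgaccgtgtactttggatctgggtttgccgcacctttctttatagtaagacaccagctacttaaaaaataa
Gm14539-201: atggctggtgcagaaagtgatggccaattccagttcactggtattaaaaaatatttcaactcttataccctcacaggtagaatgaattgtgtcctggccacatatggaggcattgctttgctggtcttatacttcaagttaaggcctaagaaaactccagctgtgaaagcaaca
Rpl37rt-202, on chr5:115103228-115103521 (minus strand), differs from Rpl37, a protein of the large ribosomal subunit, by 1 base, G249A. Positions count from 1 at the 5′ end of the single-exon transcript, with the base of the coding gene first. Rps19-ps6-201 on chromosome 12 differs from Rps19 at 5 bases (C6T, T273C, G369A, G372A and C390T), and the stretch from its base 272 to 391, on chr12:110898385-110898504 (plus strand), holds 4 of them.
Rpl37rt-202: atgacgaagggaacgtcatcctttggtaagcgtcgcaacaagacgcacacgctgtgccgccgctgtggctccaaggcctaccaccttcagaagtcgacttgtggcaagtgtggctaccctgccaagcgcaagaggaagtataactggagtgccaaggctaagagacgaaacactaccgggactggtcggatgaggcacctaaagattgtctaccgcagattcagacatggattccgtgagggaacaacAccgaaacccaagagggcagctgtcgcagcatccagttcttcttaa
Rps19-ps6-201, bases 272 to 391: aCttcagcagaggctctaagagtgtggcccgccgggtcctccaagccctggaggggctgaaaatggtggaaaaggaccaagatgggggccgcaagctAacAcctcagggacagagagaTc
Gm10925-201 is a nuclear copy of the mitochondrial gene mt-Atp6, identical over its 678 bases. Its first 120 bases, on chr1:24614532-24614651 (minus strand), read as follows.
Gm10925-201, bases 1 to 120: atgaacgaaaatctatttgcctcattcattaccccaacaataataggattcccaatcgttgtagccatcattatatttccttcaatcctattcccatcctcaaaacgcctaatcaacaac

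Of the mouse reads of replicate 2, 2.70% fell on known single-exon transcripts (95% interval 2.66 to 2.73, Clopper-Pearson) and of those of replicate 1, 2.35% (2.31 to 2.39), or 27058 and 16182 reads. Their share averaged 2.52% ± 0.245 (SD, n = 2) and was higher in replicate 2 (Fisher's exact test, two-sided, p = 9.5e-45 after Benjamini-Hochberg adjustment over 9 classes of model). Without the transcripts that resemble a coding mRNA of another gene, the share was 0.782% in replicate 2 and 0.790% in replicate 1 (Fisher's exact p = 0.535). Without the pseudogene transcript Gm15459-201 the shares were 2.55% in replicate 2 and 2.34% in replicate 1 (Fisher's exact p = 2.53e-18). Both of these subsets were chosen after the data were seen. All 9 classes of model differed between the libraries (adjusted Fisher's exact p of 9.62e-10 or less), so passing does not set single-exon transcripts apart. Known multi-exon transcripts took 65.1% of mouse reads in replicate 2, against 68.8% in replicate 1. Antisense models took 3.38% in replicate 2, against 2.73% in replicate 1.

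Pseudogenes formed the largest of the 4 types of transcript. They were 431 of the 1411 transcripts and took 63.4% of the reads on known single-exon transcripts in replicate 2 (62.8 to 64.0) and 58.3% in replicate 1 (57.6 to 59.1). Protein-coding transcripts, 365 in number, took 26.7% in replicate 2 and 31.8% in replicate 1. Both differences exceeded counting error, with Fisher's exact adjusted p = 4.57e-25 for pseudogenes and 1.19e-28 for coding transcripts over the 4 types. Of all mouse reads, pseudogenes took 1.71% in replicate 2 and 1.37% in replicate 1 (Fisher's exact adjusted p = 7.11e-68), and coding transcripts took 0.721% and 0.747%, a difference that did not pass (0.0632). Long non-coding RNAs (193 transcripts) took 3.82% in replicate 2 and 4.20% in replicate 1, and the remaining types (422 transcripts) took 6.06% and 5.65%. The differences for these 2 types did not pass the threshold of 0.05 (adjusted Fisher's exact p = 0.0664 and 0.0804). Of all mouse reads, long non-coding RNAs took 0.103% in replicate 2 and 0.0987% in replicate 1 (adjusted Fisher's exact p = 0.417), and the remaining types took 0.163% and 0.133%, a difference that passed (8.35e-07). Of all annotated single-exon transcripts of a type, reads fell on 13.0% of coding and 15.3% of long non-coding ones but on 3.97% of pseudogenes.

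Most known single-exon transcripts had few reads. Over both libraries, 515 of the 1411 (36.5%) were seen as 1 read, against 23.7% of known multi-exon transcripts, and 385 (27.3%) had at least 10 reads, against 41.3%. At the other end, the 20 transcripts with the most reads held 42.0% of all their reads, against 17.8% for the top 20 multi-exon transcripts. Of the transcripts with reads in replicate 2, replicate 1 also had reads for 62.6%, against 77.6% of multi-exon ones, and of those with reads in replicate 1, replicate 2 had reads for 76.4%, against 84.4%. For transcripts with 5 or more reads these shares were 97.0% and 99.4%, against 98.8% and 99.8% of multi-exon ones. When replicate 2 was thinned to the depth of replicate 1, it held reads of 1019 of these transcripts, beside 969 in replicate 1.

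Across all tested transcripts, 3.01% differed between the libraries. The test was an exact two-sided binomial test of each transcript's reads against replicate 2's share of mouse reads, adjusted by Benjamini-Hochberg over 7581 known nuclear transcripts with at least 10 reads, of which 228 passed. Log2 ratios are of CPM + 1, replicate 2 over replicate 1, and understate the ratios of low transcripts; their 95% intervals come from the read counts with nothing added. Of the 385 known single-exon transcripts tested, 19 passed (4.94%). Of these, 12 were higher in replicate 2 (3.12%, beside 0.857% of all known transcripts) and 7 were lower (1.82%, beside 2.15%). Among multi-exon transcripts 209 of 7196 passed (2.9%), with 0.737% higher and 2.17% lower. The median log2 ratio was 0.06 for the single-exon transcripts tested and -0.11 for the multi-exon ones. At an unadjusted p below 0.05 there were 62 single-exon and 834 multi-exon transcripts. The split depends on the scaling: with TMM or DESeq2 size factors, which place the median log2 ratio of all known transcripts tested at -0.003 and -0.007 in place of -0.113, 28 single-exon transcripts passed, 22 higher and 6 lower.

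**Figure D1:**
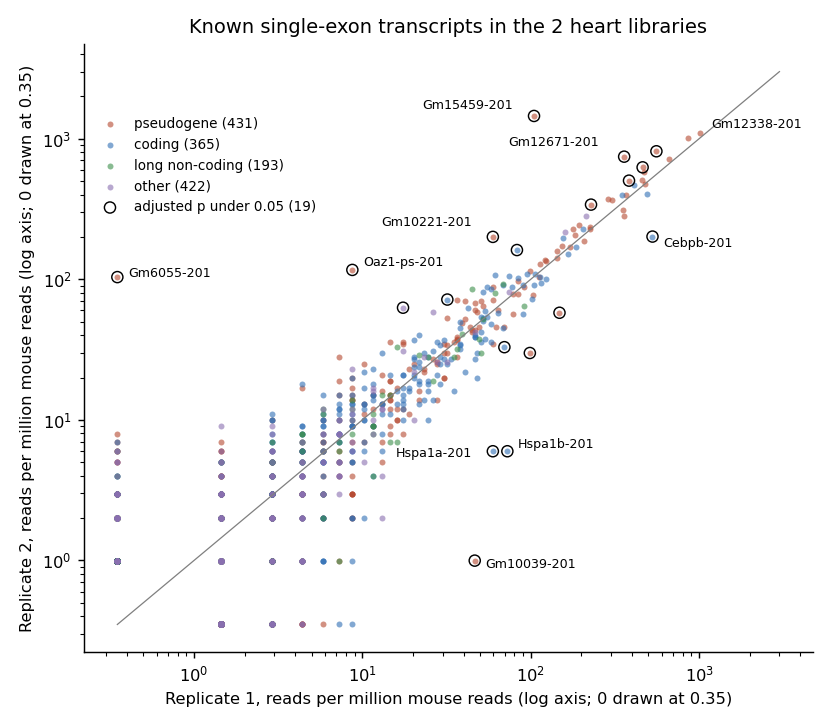
Level of each known single-exon transcript in replicate 2 (vertical axis) against replicate 1 (horizontal axis), in CPM on log axes, with values of 0 drawn at 0.35; points are coloured by transcript type and the grey line marks equal levels. The 19 circled transcripts passed an adjusted p of 0.05, with Gm15459-201 (1451 CPM in replicate 2, against 105 CPM in replicate 1) far above the line and Hspa1a-201, Hspa1b-201 and Gm10039-201 far below it.

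Likeness to a coding mRNA marked most of the reads. A single-exon transcript was said to have a coding copy where at least 50% of its length aligned at 90% identity or more, on the same strand, to a spliced or mitochondrial protein-coding transcript of another gene. This held for 479 transcripts, which took 71.0% of the reads on known single-exon transcripts in replicate 2 (70.4 to 71.5) and 66.4% in replicate 1 (65.6 to 67.1). Of these, 75 were identical to the coding transcript over their whole length, and they took 30.6% of the reads in replicate 2 and 28.6% in replicate 1. Another 194 were 99% to under 100% identical, counting identical bases over their whole length, and took 29.7% and 27.4%. Transcripts of lower identity took little, with 8.84% and 8.60% at 95% to under 99% and 1.90% and 1.79% below that. Nearly all pseudogene reads were of this kind, since 397 of 431 pseudogenes had a coding copy and held 99.8% of pseudogene reads in each library. Where a transcript is identical to its source, its sequence alone cannot tell the 2 loci apart, and read lengths, read ends and mapping scores were not used here. Which of them the RNA came from was not tested.

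**Figure D2:**
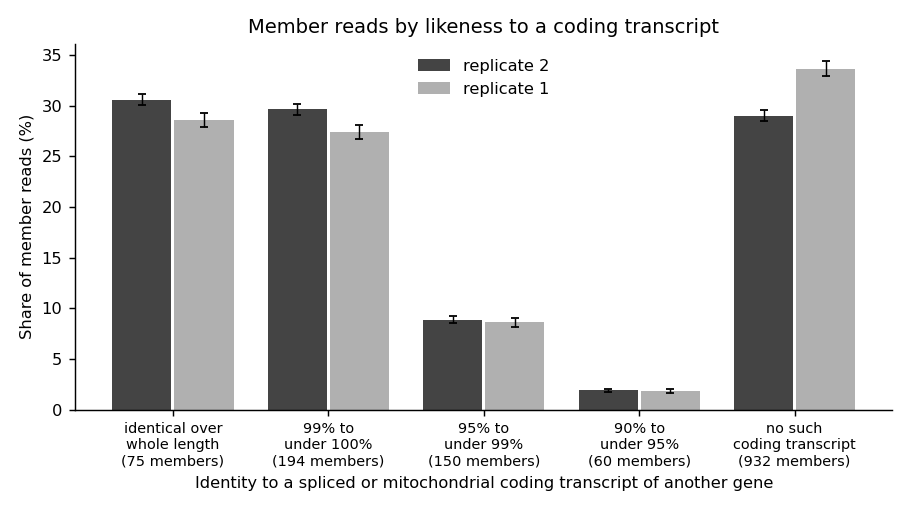
Share of the reads on known single-exon transcripts, in percent, by the identity of the transcript to a spliced or mitochondrial coding transcript of another gene, with replicate 2 in dark grey and replicate 1 in light grey; error bars are 95% Clopper-Pearson intervals. Transcripts that are identical or at least 99% identical hold the 2 tallest pairs of bars among those with a coding copy, and the 932 transcripts without one hold 29.0% in replicate 2 and 33.6% in replicate 1. Identity counts identical bases over the whole length of the transcript. The group labelled 90% to under 95% therefore also holds lower values, such as 63.3% for Hist2h2aa2-201.

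Counted by reads, most copies came from genes of ribosomes and of energy metabolism. Copies of cytosolic ribosomal protein genes were the largest of the groups named here, with 165 transcripts resembling 75 genes and 5247 reads in replicate 2 and 3310 in replicate 1. Gm15500-201 on chromosome 7, identical to Rpl5, had 579 reads in replicate 2 and 322 in replicate 1. Rpl37rt-202 had 243 and 134 reads, more than the 207 and 122 of the spliced gene Rpl37 from which it differs by 1 base. Of the 72 ribosomal protein copies with at least 10 reads, 1 passed the test between libraries, beside 3.01% of all known transcripts tested. This was Rps19-ps6-201, with 340 CPM in replicate 2, against 228 CPM in replicate 1 (log2 ratio 0.57, exact binomial adjusted p = 0.00169).

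Copies of nuclear genes of the respiratory chain and ATP synthase came next, with 28 transcripts resembling 22 genes and 4053 reads in replicate 2 and 2394 in replicate 1. Gm12338-201, the Cox7c copy, had the highest mean level of all known single-exon transcripts, with 1098 CPM in replicate 2, against 1018 CPM in replicate 1, and it averaged 1058 ± 56.6 CPM (SD, n = 2). Gm14539-201, the Usmg5 copy, followed with 1004 CPM and 862 CPM. Neither differed past the threshold between the libraries (adjusted exact binomial p = 0.602 and 0.0859). Both source genes had more reads than the copy: Cox7c itself had 2390 in replicate 2 and 1351 in replicate 1, and Usmg5 had 2473 and 1310. Gm10231-201 and Gm10175-202 on chromosomes 17 and 7, each identical to Atp5g2, the gene of a c-ring subunit of ATP synthase, had 400 and 376 reads in replicate 2 and 254 and 197 in replicate 1, beside 480 and 289 on Atp5g2. Gm11273-201 on chromosome 13 is annotated as protein-coding and differs from Cox5b, another cytochrome c oxidase subunit, at 3 bases (C114T, A213G and G243A). It had 472 reads in replicate 2 and 284 in replicate 1. Mpc1-ps-201, with the base change G41A against the mitochondrial pyruvate carrier gene Mpc1, had 722 and 454 reads, beside 647 and 384 on Mpc1.

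Of the reads placed on Gapdh, the gene of the glycolytic enzyme glyceraldehyde-3-phosphate dehydrogenase, and on its copies, 99.3% in replicate 2 and 98.9% in replicate 1 were on the copies. All models of the Gapdh gene had 13 reads in replicate 2 and 13 in replicate 1, whereas 18 single-exon copies had 1950 and 1209. Of the reads on the gene, 8 in replicate 2 and 5 in replicate 1 were on Gapdh-213, its own unspliced retained-intron model. Gm12671-201 on chromosome 4, identical to Gapdh, had 745 CPM in replicate 2, against 359 CPM in replicate 1. Gm12033-201 on chromosome 11, which differs by T504C, had 477 and 476 CPM. Gm7336-201 on chromosome 7 had 309 and 354 CPM, and Gm5559-201 on chromosome 5 had 283 and 357 CPM. Of the 10 copies tested, 1 passed as higher in replicate 2 and 1 as lower, beside 0.857% and 2.15% of all known transcripts tested. The higher copy was Gm12671-201 (log2 ratio 1.05, exact binomial adjusted p = 6.77e-23). The lower copy was Gm13394-201 on chromosome 2, with 57.8 CPM in replicate 2, against 148 CPM in replicate 1 (log2 ratio -1.34, exact binomial adjusted p = 8.08e-07). With the copies and the gene added together, the libraries were close, at a log2 ratio of 0.14 (95% interval 0.04 to 0.24). Reads of several ribosomal protein families were also mostly on copies. As examples, 8 copies of Rpl21 had 322 reads in replicate 2 and 216 in replicate 1, beside 10 and 11 on the gene. The 9 copies of Rpl35a had 306 and 214 beside 23 and 15, and 6 copies of Rpl17 had 81 and 47 beside 5 and 4. In 20 of the 144 groups of a coding gene and its copies with at least 10 reads on the copies, the copies held more than 50% of the reads in each library.

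Nuclear copies of mitochondrial genes formed a block on the minus strand of chromosome 1. On chr1:24611535-24616197, 7 annotated pseudogenes follow each other that resemble mt-Nd4, mt-Nd4l, mt-Nd3, mt-Co3, mt-Atp6, mt-Co2 and mt-Co1, the mitochondrially encoded subunits of complexes I and IV and of ATP synthase. Gm10925-201 (mt-Atp6), whose first bases are printed above, had 817 reads in replicate 2 and 384 in replicate 1, beside 874 and 398 on mt-Atp6. Gm29216-201 (mt-Co1) had 628 and 318, Gm28437-201 (mt-Co3) had 505 and 264 and Gm28661-201 (mt-Co2) had 370 and 209. The log2 ratios of these 4 transcripts, in the same order, were 0.54, 0.44, 0.39 and 0.28. Those of the mitochondrial genes were 0.59 for mt-Atp6, 0.18 for mt-Co1, 0.64 for mt-Co3 and 0.64 for mt-Co2. The first 3 copies passed the test between libraries (exact binomial adjusted p = 8.2e-08, 0.000663 and 0.0151) and Gm28661-201 did not (0.295). In all, 7 mitochondrial copies were tested, of which 3 were higher in replicate 2 and 0 lower. Beside this, 0.857% and 2.15% of all known transcripts tested were higher and lower. Gm28439-201 (mt-Nd4), with 28 and 5 reads, and Gm28438-201 (mt-Nd3), with 14 and 15, had log2 ratios of 1.81 and -0.61. Neither passed (adjusted exact binomial p = 0.0669 and 0.760). Known transcripts of the mitochondrial chromosome made up 1.46% of replicate 2 and 1.07% of replicate 1 by mouse reads, and the part of that difference in the counts of the nuclear copies was not tested. On chromosome 2 there were 2 further copies, Gm13340-201 (mt-Co1) with 46 and 30 reads and Gm13339-201 (mt-Nd2) with 1 and 0.

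Copies of coding genes were 12 of the 19 transcripts that passed. They came from 174 tested transcripts with a coding copy, 6.90% of which passed, and 7 of 211 transcripts without one passed (3.32%), beside 3.01% of all known transcripts. The difference between these shares was not tested. Gm15459-201 on chr5:5781615-5783555 is a copy of Hspa8, the constitutive Hsc70 chaperone, with 5 differing bases over 1941 (G114A, C414T, C549T, G1222A and C1440T). It had 1457 reads in replicate 2 and 72 in replicate 1, or 1451 CPM and 105 CPM, the widest gap in reads of any single-exon transcript (log2 ratio 3.78, 95% interval 3.45 to 4.16, exact binomial adjusted p = 1.45e-230). Hspa8 itself had 1470 reads in replicate 2 and 1539 in replicate 1 (log2 ratio -0.61). The gene and its 2 copies together had 2927 and 1613 reads, a log2 ratio of 0.32 (0.23 to 0.40).

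The other copies that passed had fewer reads. Gm6055-201 on chromosome 14, which resembles the autophagy gene Map1lc3b, had 104 reads in replicate 2 and 0 in replicate 1, at least 23.8-fold higher in replicate 2 against the 3 reads that a count of 0 allows. Oaz1-ps-201 on chromosome 17 is a copy of Oaz1, the ornithine decarboxylase antizyme, and had 117 reads in replicate 2 and 6 in replicate 1. It lies in an intron of another gene on the same strand. Gm10221-201 on chromosome 5, identical to the ATP synthase gene Atp5l, had 201 and 41. In the opposite direction, Gm10039-201 on chromosome 11, a copy of the ATP synthase gene Atp5g1, had 1 read in replicate 2 and 32 in replicate 1. Hsp25-ps1-201 on chromosome 13, a copy of the small heat shock gene Hspb1, had 30 and 68. All 5 had an adjusted exact binomial p of 1.55e-06 or less, and in each the coding gene had more reads than the copy in either library.

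The reads of each coding gene and its copies were also added. In the 8 nuclear groups with a copy that passed, the log2 ratio of the sum was smaller in size than that of the copies, but these copies were picked for their ratio. In most of these groups the gene held most of the reads, so the sum lies near the gene's own ratio: the copy of Oaz1 held 5.65% of the sum in replicate 2 and 0.417% in replicate 1, and that of Atp5g1 0.0244% and 1.24%. Oaz1 and its copy together gave a log2 ratio of -0.02 (-0.12 to 0.08), beside 3.60 for the copy. Map1lc3b gave 0.20 (0.02 to 0.39), beside a copy without reads in replicate 1. Atp5g1 gave 0.13 (0.06 to 0.20), beside -4.57 for the copy, and Atp5l gave 0.25 (0.13 to 0.38), beside 1.70 for its 2 copies. Hspb1 and its copy gave -0.70 (-0.92 to -0.47), beside -1.69 for the copy and -0.53 for the gene. Of the 3 mitochondrial groups with a copy that passed, the sum had the smaller ratio in 1. Over the 144 groups, the sum had the smaller ratio in size in 96 and not in 48. The log2 ratio exceeded 1 in size in 19 for the copies and in 0 for copies and gene together. The median size of the log2 ratio was 0.35 for the copies, 0.21 for the genes and 0.19 for their sums. The sums have more reads than the copies, so their counting error is smaller, and the part of depth in this was not tested.

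**Figure D3:**
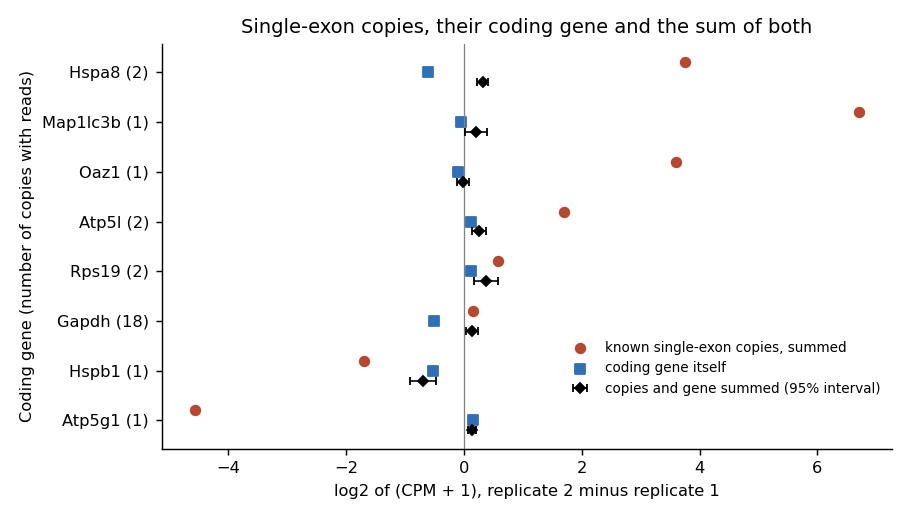
Difference between the libraries for the 8 nuclear coding genes with a single-exon copy that passed the test, as log2 of (CPM + 1) in replicate 2 minus replicate 1; red circles are the copies summed, blue squares the coding gene, and black diamonds both together with a 95% interval from counting error. The copies of Map1lc3b, Hspa8 and Oaz1 lie above 3 and those of Atp5g1 below -4, while the sums lie between -0.70 and 0.37.

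Among the role lists of coding transcripts, immediate early and stress genes, mostly of transcription factors, had the most reads. The list was chosen with earlier results of these data known, so its split by direction is not an independent test. It also holds genes of proteins that are not transcription factors, such as Otud1, Cited4 and Nrarp. Of 28 genes on this list with an annotated single-exon transcript, 23 had reads and 13 had at least 10. Of these, 0 rose and 2 fell in replicate 2, Cebpb and Otud1, and 5 had an unadjusted exact binomial p below 0.05. Beside these counts, 2.15% of all known transcripts tested fell, and the unadjusted p was below 0.05 in 62 of 385 single-exon and 834 of 7196 multi-exon transcripts. Together they reached 1003 CPM in replicate 2, against 1475 CPM in replicate 1. Jund-201, of the AP-1 factor JunD, led with 407 CPM in replicate 2, against 489 CPM in replicate 1 (log2 ratio -0.26, exact binomial adjusted p = 0.221). Cebpb-201, of the C/EBP-beta factor of inflammatory and stress responses, was at 201 CPM in replicate 2, against 528 CPM in replicate 1 (log2 ratio -1.39, 95% interval -1.65 to -1.14, adjusted exact binomial p = 1.44e-26). Otud1-201, of a deubiquitinating enzyme, was at 32.9 CPM in replicate 2, against 69.7 CPM in replicate 1 (log2 ratio -1.06, adjusted exact binomial p = 0.0356). It did not pass with TMM scaling (0.0942), with DESeq2 size factors (0.0941), without a minimum of reads (0.0884) or with replicate 2 thinned (0.204). Jun-201 had 37 reads in replicate 2 and 21 in replicate 1, Ier2-201 had 34 and 26, Junb-201 had 27 and 23 and Cebpd-201 had 22 and 28, and none of these passed. Cited4-201, of a co-activator partner, had 109 reads in replicate 2 and 65 in replicate 1, and Irf2bp1-201, of a co-repressor, had 36 and 40. The lowest tested were Ier5-201 with 27 and 14 reads, Sox4-201 with 23 and 8, Nrarp-201, of a Notch feedback regulator, with 19 and 17, and Irf2bpl-201 with 13 and 7, none of which passed. Jund-201 and Cebpb-201 overlap exons of another gene on the opposite strand.

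The inducible Hsp70 genes were the coding transcripts with the largest ratio between the libraries. Hspa1b-201 on chr17:34956436-34959238 had 6 reads in replicate 2 and 50 in replicate 1, and Hspa1a-201 on chr17:34969190-34972156 had 6 and 41. Both fell in replicate 2, with log2 ratios of -3.40 (95% interval -5.12 to -2.38) and -3.12 (-4.84 to -2.07) and exact binomial adjusted p of 1.09e-11 and 1.22e-08. The 2 transcripts are 99.2% identical over 2201 aligned bases, so reads can be divided between them with uncertainty. Other heat shock members were low: Hspa2-202 had 9 reads in replicate 2 and 8 in replicate 1, and Hspb3-201 had 11 and 2. Neither passed. The spliced chaperone genes Hspa8 and Hspb1 had log2 ratios of -0.61 and -0.53, but with the copies added Hspa8 turned to 0.32 (0.23 to 0.40) and Hspb1 stood at -0.70 (-0.92 to -0.47).

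The promoters of this pair were examined after the ratios of the transcripts were seen. The transcripts are near-identical and so are the promoters, so the pair is close to 1 observation. Heat shock factor is known to bind arrays of inverted GAA units, and GAANNTTC and TTCNNGAA were searched, each of which reads the same on both strands. GAANNTTC occurred once in each promoter, in capitals here, and TTCNNGAA in neither. In the RefSeq table (GRCm38.p6), which holds 250 bases before and 50 after the start of each gene, 7.86% of 32851 promoters hold GAANNTTC and 15.1% hold at least 1 of the 2 motifs. The promoter of Hspa1a lies on chr17:34972107-34972406 and that of Hspa1b on chr17:34959189-34959488, both on the minus strand, and they differ at 4 of 300 bases. A match describes these letters and not a bound site, and its bearing on the ratios was not tested. The promoters of Cebpb, Otud1 and Jund held neither motif, which is also the case for most promoters.
Hspa1a promoter: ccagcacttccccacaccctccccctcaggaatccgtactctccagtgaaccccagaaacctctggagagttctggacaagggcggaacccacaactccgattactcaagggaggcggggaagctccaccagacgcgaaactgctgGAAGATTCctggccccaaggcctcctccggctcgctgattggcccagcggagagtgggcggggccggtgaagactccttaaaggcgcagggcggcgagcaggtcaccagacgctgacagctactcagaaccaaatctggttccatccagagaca
Hspa1b promoter: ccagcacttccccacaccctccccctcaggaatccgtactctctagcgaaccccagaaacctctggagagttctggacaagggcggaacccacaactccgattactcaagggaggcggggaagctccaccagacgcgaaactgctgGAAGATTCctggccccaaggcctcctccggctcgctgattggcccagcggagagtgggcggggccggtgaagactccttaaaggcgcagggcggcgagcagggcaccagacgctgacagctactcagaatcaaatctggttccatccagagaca

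Histone genes had reads for 18 of 73 annotated single-exon transcripts, and 8 had at least 10. Hist1h4h-201, of a histone H4, rose to 161 CPM in replicate 2, against 82.7 CPM in replicate 1 (log2 ratio 0.96, exact binomial adjusted p = 0.000532). The others did not pass, so 1 of the 8 tested passed, beside 3.01% of all known transcripts tested. Hist2h2aa2-201 and Hist2h2aa1-201, near-identical H2A genes on chromosome 3, had 106 and 85 reads in replicate 2 and 51 and 40 in replicate 1. Hist3h2a-201, of another H2A, had 54 and 38. The replacement linker histone transcript H1f0-201 had 48 and 40, and Hist1h1c-201, another linker histone, had 30 and 33. H2afx-201, of the H2A variant that is phosphorylated at DNA breaks, had 13 and 11, and Hist2h2be-201 had 8 and 5.

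No tested transcript of receptors, channels or cardiac or vascular genes passed the threshold, which 3.01% of all known transcripts tested passed. With so few tested, this does not set these genes apart. Of 21 annotated transcripts of receptors and channels, 11 had reads and 5 had at least 10. Kcnj11-205, of the pore subunit of the ATP-sensitive potassium channel, was the highest at 195 CPM in replicate 2, against 155 CPM in replicate 1 (exact binomial adjusted p = 0.448). Kcna5-201, of a voltage-gated potassium channel of atrial muscle in humans, had 16 reads in replicate 2 and 24 in replicate 1. Aplnr-201, the apelin receptor, had 19 and 15, Adrb1-201, the beta-1 adrenergic receptor, had 14 and 16, and P2ry1-203, a purinergic receptor, had 20 and 6. Among 13 cardiac or vascular transcripts, 10 had reads and 7 were tested. Pcbp1-201, of an RNA-binding protein, had 170 reads in replicate 2 and 128 in replicate 1. Lrrc10-201, of a heart-specific leucine-rich repeat protein, had 45 and 47, and the endothelial genes Cldn5-201 and Thbd-201 had 107 and 45 reads in replicate 2 and 42 and 26 in replicate 1. Cldn5-201, a tight junction claudin, came closest to the threshold at a log2 ratio of 0.80 (adjusted exact binomial p = 0.059). Clec14a-201, an endothelial lectin, had 13 and 9 reads, and Fam43a-201 had 13 and 5. At an unadjusted p below 0.05 there were 1 receptor or channel and 2 cardiac or vascular transcripts, beside 62 of all 385 single-exon transcripts tested.

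**Figure D4:**
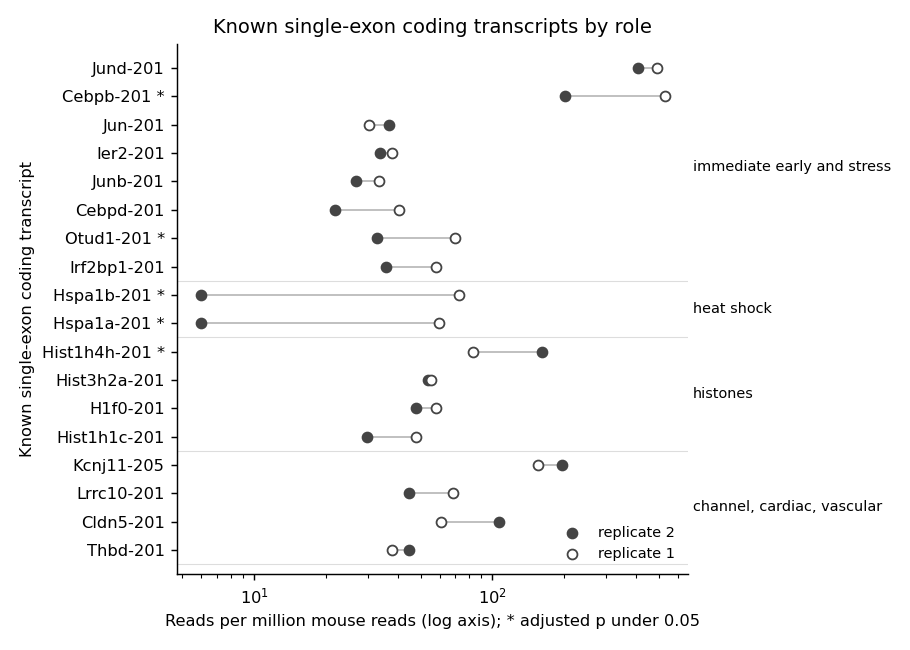
Level of known single-exon coding transcripts by role, in CPM on a log axis, with filled circles for replicate 2 and open circles for replicate 1; an asterisk marks an adjusted p below 0.05. Hspa1a-201 and Hspa1b-201 stand at 5.98 CPM in replicate 2, against 59.5 and 72.6 CPM in replicate 1, and Cebpb-201 at 201 CPM, against 528 CPM.

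Of the coding transcripts outside these lists, Gm5617-201 on chromosome 9 passed the test, with 71.7 CPM in replicate 2, against 31.9 CPM in replicate 1 (log2 ratio 1.14, exact binomial adjusted p = 0.0218). The other coding transcripts with the most reads did not pass. Ftl1-ps1-202 on chromosome 13, annotated as coding and 96.6% identical over its length to the ferritin light chain gene Ftl1, had 397 reads in replicate 2 and 240 in replicate 1, beside 376 and 223 on Ftl1. 0610012G03Rik-201 on chromosome 16 had 229 and 140, and Fem1a-201, of a substrate receptor of a ubiquitin ligase, had 153 and 115. In 169 tested coding transcripts, 2 were higher and 4 lower in replicate 2, beside 0.857% and 2.15% of all known transcripts tested. Of the 24 with a coding copy, 0 passed the exact binomial test, with 2 at an unadjusted p below 0.05. Of the 145 without one, 6 passed, beside 3.01% of all known transcripts tested.

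Long non-coding transcripts were low. Of 34 tested, 0 passed the exact binomial test, beside 3.01% of all known transcripts tested, and the difference between these shares was not tested. At an unadjusted p below 0.05 there were 3, beside 62 of all 385 single-exon transcripts tested. The highest were 3 transcripts that resemble coding genes: Scp2-ps2-203 had 93 reads in replicate 2 and 47 in replicate 1, Gm10076-202, which resembles Rpl41, had 65 and 63, and Gpx4-ps2-202 had 80 and 42. Neat1-201, the scaffold RNA of nuclear paraspeckles, had 84.7 CPM in replicate 2, against 45.0 CPM in replicate 1 (log2 ratio 0.90, adjusted exact binomial p = 0.0692). Gm28006-201, a small RNA model of 122 bases that lies within a Neat1 exon on the same strand (chr19:5844916-5845037), had 82 and 51 reads, and the 2 models cannot be told apart there by position. Malat1-201, a nuclear speckle RNA, had 19 reads in replicate 2 and 18 in replicate 1. Gm42418-201 had 52 and 36 reads and AY036118-201, which overlaps it on the opposite strand (chr17), had 30 and 35. AY036118-201 also overlaps an exon of another gene on its own strand. The 2 unspliced forms of 2900097C17Rik had 38 and 41 reads in replicate 2 and 34 and 27 in replicate 1. The 8 transcripts with reads on the list of nuclear long non-coding RNAs summed to 271 CPM in each library. The list was set by gene symbol, and where these RNAs lie in the cell was not measured. It includes Gm42418-201, AY036118-201 and Gm26917-202, which lie close together on chromosome 17.

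Genes that also have annotated spliced transcripts held 386 of the 1411 transcripts, with 3253 reads in replicate 2 and 1896 in replicate 1. Coding transcripts were 85 of these, with 1380 and 836 reads. Retained introns numbered 225, with 1218 reads in replicate 2 and 695 in replicate 1. Trdn-204, an unspliced model of triadin, the protein that links the ryanodine receptor to calsequestrin in the sarcoplasmic reticulum, led with 283 reads in replicate 2 and 147 in replicate 1. They were 34.0% of the 833 reads of Trdn in replicate 2 and 33.8% of the 435 in replicate 1. Ss18l2-207 held 219 of 399 reads of its gene in replicate 2 and 110 of 215 in replicate 1. Pgp-202, of phosphoglycolate phosphatase, held 42 of 155 and 32 of 117. Clasp1-207, of a microtubule plus-end protein, had 26 and 22 reads, and Usp19-211, of a deubiquitinating enzyme, had 26 and 19. Among provisional gene models, Gm37829-201 had 59 reads in replicate 2 and 18 in replicate 1 (adjusted exact binomial p = 0.0533). Egfl7-213, of a factor secreted by endothelial cells, had 62.7 CPM in replicate 2, against 17.4 CPM in replicate 1 (log2 ratio 1.79, exact binomial adjusted p = 0.000436). It lies inside the span of another gene on the same strand, and the call was lost when all reads of Egfl7 were counted (adjusted p = 0.0502) or when genes with overlapping exons were added together (0.309).

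The share of a gene's reads on its single-exon known transcripts split the genes in a near-complete way. Of the 267 genes examined, each with 20 or more reads per library, 132 have only single-exon transcripts in the annotation, and in 130 of these the known transcripts held at least 90% of the reads. The pooled share was 99.7% in replicate 2 and 99.6% in replicate 1. A gene without annotated introns cannot give models that lack or recombine them, so this share follows in part from how models are classed. Read ends were not used here, so whether reads counted as known span the whole single-exon transcript was not tested. In 135 genes that also have annotated spliced transcripts, the median share was 2.78%. Of these, 12 had at least 90%, among them Kcnj11 (93.8% in replicate 2 and 93.0% in replicate 1) and Neat1 (93.4% and 93.9%), and Junb, Cebpd and Ftl1-ps1 had all of their reads on the single-exon transcript. The share differed between the libraries in 0 of the 267 genes (Fisher's exact test, adjusted), with 3 at an unadjusted p below 0.05.

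**Figure D5:**
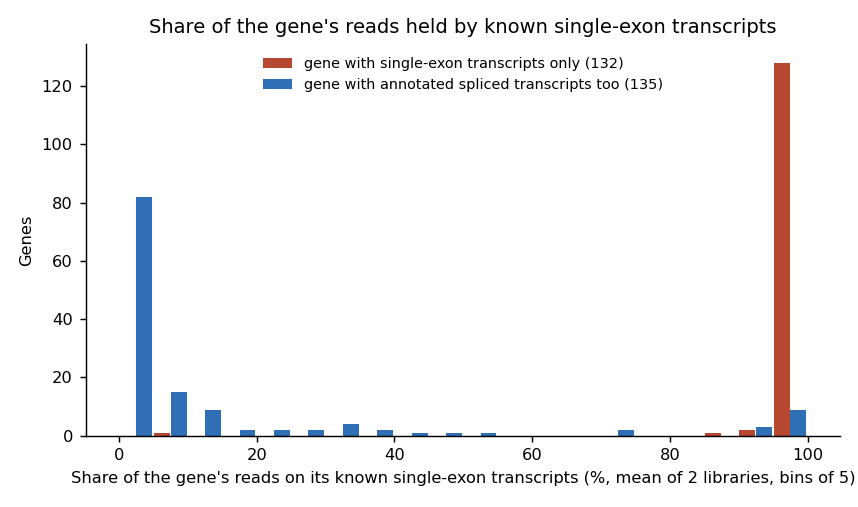
Number of genes by the share of their reads on known single-exon transcripts, as the mean of the 2 libraries in bins of 5 percentage points, for 132 genes with single-exon transcripts only (red) and 135 genes that also have annotated spliced transcripts (blue). The red genes sit almost entirely in the last bin and most blue genes in the first.

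Small RNA genes and other short models contributed little. Of 6092 annotated single-exon transcripts of small RNA genes, 87 had reads and 2 had at least 10. The 87 together reached 203 CPM in replicate 2, against 179 CPM in replicate 1. Gm28006-201 held 82 of their 204 reads in replicate 2 and 51 of 123 in replicate 1. It lies within a Neat1 exon on the same strand, so these may be reads of Neat1. MicroRNA precursors were 42 of the 87, with 65 reads in replicate 2 and 42 in replicate 1. The highest precursor, Gm26377-201, had 10 and 5 reads and lies on an exon of another gene on the same strand. Mir546-201 had 3 reads in replicate 2 and 5 in replicate 1, also within an exon of another gene on that strand. These are reads on precursor models and not on mature microRNAs.

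The types were also described by length, position and transcript end. Pseudogenes with reads had a median length of 519 bases and coding single-exon transcripts 2267, beside 2275 for known multi-exon transcripts. The polyadenylation hexamer AATAAA was found in the last 50 bases of 1.86% of pseudogenes, 56.2% of coding, 49.7% of long non-coding and 29.6% of the remaining single-exon transcripts, beside 56.8% of multi-exon ones. Pseudogenes with no reads held it in 1.54%, close to those with reads. These are the ends of the annotated models, and where the reads end was not examined. Coding single-exon transcripts with no reads were shorter, with a median of 954 bases, and 17.4% of them held the hexamer. Of all 1411 transcripts, 726 overlapped no other gene, 118 overlapped an exon of another gene on the same strand, and 132 lay in an intron of one on the same strand. Introns of other genes on the same strand held 9.36% of single-exon and 0.942% of multi-exon transcripts with reads. Among pseudogenes, 50 lay in such an intron, with 1464 reads in replicate 2 and 897 in replicate 1, and there the pseudogene and its host cannot be told apart by position and strand. Oaz1-ps-201, Gm13394-201 and Rps19-ps6-201, which passed the test between libraries, are among these pseudogenes.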

How the data were processed

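Long reads of 2 heart libraries of 1 group were used. The authors deposited whole-number read counts per transcript model, not normalized, with an annotation of the models. The build is mm10 and the known models are GENCODE M21, per the descriptions deposited with the files. TALON appears in the source column of models that are not annotated. What aligner and read filter were used is not given in the sources used here. Transcript calling decides which of several near-identical or overlapping loci a read is given to. Identifiers, positions, types and exon numbers are other columns that the authors deposited beside the counts.

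Members and lists were chosen with earlier results of these data known. They were matched by transcript identifier, and 0 known transcripts lay elsewhere in the GENCODE reference. CPM is per 1000000 mouse reads, spike-ins left out, and log2 ratios use a pseudocount of 1 CPM. Both libraries together had to give 10 reads for the exact binomial test. edgeR's quasi-likelihood test of 1 library against the other has no residual degrees of freedom. edgeR 4.0.16 (TMM) and DESeq2 1.42.0 in R 4.3.3 gave scaling factors as alternatives only. Shares and ratios have 95% Clopper-Pearson intervals, which cover counting error only. Coding copies were found with blastn 2.17.0, and overlaps with bedtools 2.31.1. Calculations used Python 3.11.15 and scipy 1.17.1, and the tests were tested on simulated data. ERCC spike-ins gave 4 of 27 past an adjusted p of 0.05, with log2 ratios of -0.23 to 0.25 among those called. Beside this, 3.01% of all known transcripts tested passed, and the difference between these shares was not tested. The spike-ins that passed differed by more than the counting error that the test covers.

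The rule for named transcripts took the 20 highest by mean CPM, the 8 highest of each type, up to 10 called transcripts with the largest and 10 with the smallest ratio, and role-list members with at least 10 reads. Some transcripts that this rule takes are not reported here. Other transcripts are named as examples of a group and were chosen after their values were seen. The list of ribosomal protein pseudogenes by symbol had 66 of 298 transcripts with reads. Of 32 tested, 1 was higher in replicate 2 and 0 lower, beside 0.857% and 2.15% of all known transcripts tested. The share of A in the genome after each transcript's end was not analysed here.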

Additional observations from a re-analysis of the deposited data

How the results depend on the processing

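No paired analysis was possible because there is 1 group only. The 19 calls became 28 with TMM or DESeq2 scaling, 20 with spike-in scaling, 24 with a minimum of 20 reads, 17 with none or with replicate 2 thinned, 22 with gene counts and 21 with overlapping genes pooled. With coding copies pooled, a setting chosen after seeing the data, 41 of the 385 transcripts belonged to a pooled count past the threshold, 30 higher and 11 lower, and 14 of the 19 calls were among them, 13 in the same direction and Gm10039-201 with its sign turned (adjusted exact binomial p = 0.0127). In that setting Gm10039-201 turned to 0.13, Gm13394-201 to 0.14 and Oaz1-ps-201 to -0.018 (log2), each as the value of its coding gene with all copies. Gm28437-201 did not pass with replicate 2 thinned (adjusted exact binomial p = 0.24), and Gm5617-201 (72 reads in replicate 2 and 22 in replicate 1) did not pass without a minimum (0.0541).

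The mean share of mouse reads was 3.57% of known reads and 0.786% without transcripts that have a coding copy. At least 2 reads left 805 transcripts and at least 5 left 465. Without transcripts on same-strand exons of other genes, long non-coding transcripts held 3.59% and the remaining types 5.48% of the reads. The median share of a gene's reads was 98.3%, and 100% without incomplete and genomic models. With 1 library left out there is no test, and single libraries gave shares of 2.35% to 2.70%, 969 to 1182 transcripts, and type shares of 58.3% to 63.4% (pseudogene), 26.7% to 31.8% (coding), 3.82% to 4.20% (long non-coding) and 5.65% to 6.06% (remaining types).

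Depth limits detection: 36.5% of the transcripts rest on 1 read. The 2 libraries carry 1 donor identifier but are called biological replicates. Whether their spread includes that between animals is not known, and the spread between animals was not measured separately.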
